A study of Mus musculus with 4 samples.

Results

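Cycling immune cells were the cells in which RNA of the proliferation genes Mki67 and Top2a was counted at least 2 times in all, and 540 such cells, chosen by these measured values, were found among 29791 cells of 4 mouse libraries. A cell was a droplet barcode with at least 500 RNA molecules, each counted once by its unique molecular identifier (UMI), at least 250 detected genes and at most 10% of UMIs from mitochondrial genes. Cells with 10% or more of their UMIs from the globin genes Hba-a1, Hba-a2, Hbb-bs and Hbb-bt were left out, and so were young brain barcodes with more UMIs in the aged spleen library. The aged brain gave 87 cycling cells of 13602, the young brain 11 of 3682, the aged spleen 262 of 5618 and the young spleen 180 of 6889. Mki67 and Top2a chose these cells, so their levels, and the differences between cycling and other cells that follow from that choice, are given as descriptions.

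The study sorted cells with high CD45, a surface protein of leukocytes, from the brain and the spleen of aged and of young mice, and read their RNA with droplet libraries from the 3′ end. Each of the 4 groups was 1 library, with no replicate, so no difference between groups was tested, and every interval below covers counting error only. The labels describe, for all 4 libraries alike, a tamoxifen injection and natural killer (NK) cells carrying the tdTomato reporter 4 weeks later; whether the mice of these libraries were so treated is not settled by the labels. They give no strain, no age in numbers, no number of animals and no statement on pooling. They also call the cells of every library neuroblasts. The neuroblast gene Dcx had 0 UMIs in the cycling cells of all 4 libraries, which allows a share of cells with a UMI of up to 3.45% for aged brain, 27.3% for young brain, 1.15% for aged spleen and 1.67% for young spleen, and Sox11 was found in 1 cycling cell of the aged brain with 15 UMIs.

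Cells that divide copy their DNA in S phase and part the copies in mitosis. Helicase subunits, polymerases, enzymes of nucleotide supply and histones serve the first task, and cyclin B with Cdk1, the spindle, the kinetochores and the anaphase-promoting machinery serve the second. Mki67 coats mitotic chromosomes, Top2a untangles DNA, Birc5 belongs to the chromosomal passenger complex and Stmn1 destabilises microtubules. In mice the spleen holds T and B cells that divide when activated and also makes red cells and granulocytes from progenitors, while microglia, the macrophages of the brain tissue, renew themselves in place at a low rate.

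The libraries held 26384220 to 57011537 UMIs. Median depth was 2094 UMIs per cell for aged brain, 2338 for young brain, 4596.5 for aged spleen and 4094 for young spleen, and in cycling cells it was 5993, 6196, 9068 and 6082. The young brain and aged spleen libraries shared 4840 barcodes that passed the filters on UMIs, genes and mitochondrial share. Dropping young brain barcodes with more UMIs in the aged spleen left 1 shared barcode. Of the 262 cycling cells of the aged spleen, 250 had at least 500 UMIs at the same barcode in another library. The aged brain shared 51 barcodes with the aged spleen, 3 of them counted as cycling in both; without aged brain barcodes that had more UMIs in the aged spleen, the aged brain share was 0.620%. Leaving out every barcode that had more UMIs in any other library gave shares of 0.622% for aged brain, 0.300% for young brain, 4.67% for aged spleen and 2.62% for young spleen. RNA outside cells, taken from barcodes with at most 100 UMIs, held 33.2 Mki67 and Top2a UMIs per 1000000 for aged brain, 123 for young brain, 154 for aged spleen and 74.7 for young spleen. At the median depth of a cycling cell this comes to 0.199, 0.760, 1.39 and 0.454 UMIs if all UMIs of the cell were free RNA. At the median depth of all cells it comes to 0.0695, 0.287, 0.706 and 0.306 UMIs. In the aged spleen 4972 of the 5618 cells had 0 UMIs of both genes. The part of free RNA in the cells with few cycle UMIs was not tested.

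The 4 marker genes set a clear core and a wide margin. Birc5, which took no part in the choice, was found in 218 of the 540 cycling cells (40.4%), namely 56 of 87 for aged brain, 9 of 11 for young brain, 95 of 262 for aged spleen and 58 of 180 for young spleen. Stmn1 was found in 293 (54.3%), as 67, 10, 131 and 85 cells in the same order. Ptprc, which encodes CD45, was found in 480 (88.9%), as 65, 9, 237 and 169 cells. Among the 28304 cells with 0 UMIs of Mki67 and Top2a, Ptprc was found in 67.6%, at a median depth of 2681 against 7103 UMIs in cycling cells. By Ptprc the label of immune cells thus held for most cycling cells. A cell without a Ptprc UMI is not thereby shown to be of another kind. The label of cycling cells held by Birc5 for a minority (40.4%) and by Stmn1 for 54.3%. Birc5 was found in most cycling cells of each brain library but in a minority of those of each spleen library.

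Cells with exactly 2 UMIs of Mki67 and Top2a made up 42.6% of the cycling cells. Their markers stood much nearer to those of the cells just below the threshold than to those of the cells well above it. With 0 UMIs of Mki67 and Top2a, Birc5 was found in 0.318% of 28304 cells and Stmn1 in 5.89%. With 1 UMI, just outside the threshold, the shares were 1.27% and 14.0% of 947 cells, and with 2 UMIs, just inside it, 7.39% and 24.8% of 230 cells. With 5 to 9 UMIs they were 52.5% and 72.1% of 61 cells, and with 10 or more 92.8% and 95.2% of 166 cells. A list of 64 genes of G2 phase and mitosis, which holds Birc5 but not Mki67 and Top2a, behaved alike: its UMIs per 10000 were 5.09 at 0 UMIs, 6.53 at 1, 9.63 at 2, 12.5 at 3 to 4, 29.1 at 5 to 9 and 64.2 at 10 or more. Cells with 5 or more UMIs held 95.9%, 91.9%, 92.1% and 88.7% of the G2 and mitosis UMIs of the cycling cells for aged and young brain and for aged and young spleen. Results below are therefore also given for cells with at least 5 UMIs of Mki67 and Top2a, a minimum chosen after the data were seen.

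**Figure D1:**
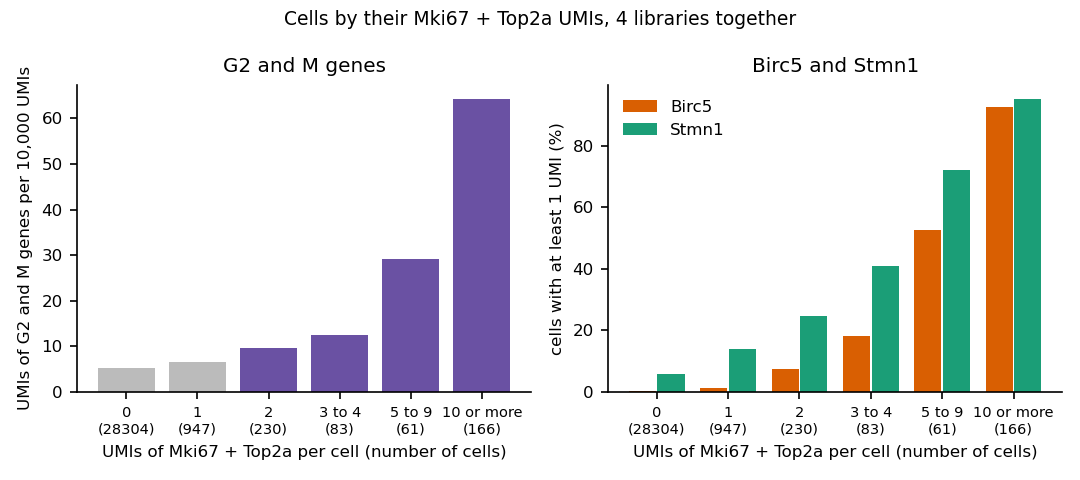
UMIs of G2 and mitosis genes per 10000 UMIs (left) and the percentage of cells with a UMI of Birc5 or Stmn1 (right), by the number of Mki67 and Top2a UMIs in the cell, over the 4 libraries together, with the number of cells in each bin. The bars climb from 9.63 UMIs per 10000 at exactly 2 UMIs to 64.2 at 10 or more, and Birc5 from 7.39% to 92.8% of cells.

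The margin was wider in the spleen than in the brain. Cells with exactly 2 UMIs were 24.1% of the cycling cells for aged brain, 27.3% for young brain, 42.7% for aged spleen and 52.2% for young spleen. The median number of Mki67 and Top2a UMIs per cycling cell was 15, 13, 3 and 2, and the highest was 55, 38, 99 and 101. At 5 or more UMIs there remained 60 cells for aged brain, 8 for young brain, 108 for aged spleen and 51 for young spleen.

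Within this core, the brain cells lay mostly on the mitotic side and the spleen cells on both. In the 60 aged brain cells the median was 27.7 UMIs per 10000 for 47 replication genes and 104 for the 64 genes of G2 and mitosis, and 55 cells had more of the latter. In the 8 young brain cells the medians were 8.23 and 142, and 7 cells had more UMIs of G2 and mitosis genes. The 108 aged spleen cells had medians of 35.8 and 46.3, with 60 cells richer in G2 and mitosis genes and 46 in replication genes. In the 51 young spleen cells the medians were 47.8 and 66.0, with 30 and 20 cells on the respective sides. Since the threshold rests on genes whose RNA peaks in G2 and mitosis, cells early in S phase are less likely to be among these cells, in every library.

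**Figure D2:**
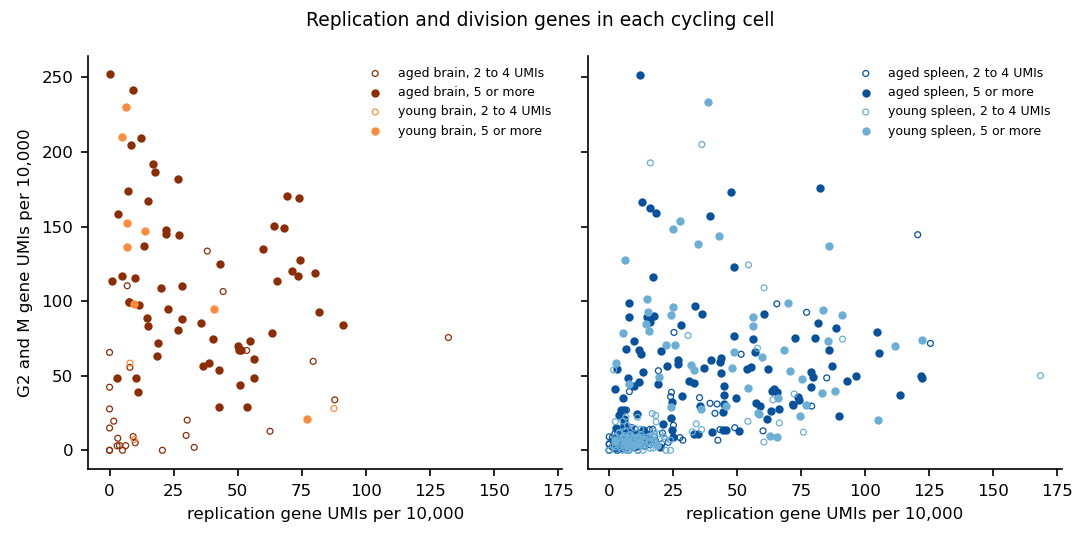
Each point is a cycling cell, placed by its UMIs per 10000 of 47 replication genes (x axis) and of 64 G2 and mitosis genes (y axis), for the 2 brain libraries and the 2 spleen libraries. Filled points have at least 5 UMIs of Mki67 and Top2a and open points 2 to 4, and the open points gather near the origin.

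The 2 gene lists also differed in the letters before their start sites. The 250 bases upstream of the start were searched on both strands in RefSeq promoters of GRCm38.p6, where 56 of the 64 G2 and mitosis genes, 38 of the 47 replication genes and 27025 genes in all had an entry. The word TTTGAA, the cell cycle homology region, was found in 28.6% of the G2 and mitosis genes, 18.4% of the replication genes and 18.3% of all genes. CCAAT was found in 66.1%, 65.8% and 37.5%, and GCGGGAA, a word of E2F sites, in 5.36%, 26.3% and 4.38%. TTTGAA together with CCAAT was found in 23.2%, 13.2% and 6.45%. A match says only that the letters are there. Top2a, Cdk1 and Hells stood outside both lists, and Top2a was 1 of the 2 genes that chose the cells. Ube2c is on the G2 and mitosis list and Rrm1 on the replication list. Birc5, also on the G2 and mitosis list, had none of these words in its 250 bases. The 150 bases before the start are shown 5′ to 3′ along the gene for 5 genes whose RNA was high in these cells, with matches on either strand in capitals. They were chosen after the matches were known: Top2a, Cdk1, the kinase of mitotic entry, and Ube2c, which loads ubiquitin for the anaphase-promoting complex, carry TTTGAA and the CCAAT box, while Rrm1, a subunit of ribonucleotide reductase, and Hells, a chromatin remodeller, carry GCGGGAA. A match on the opposite strand appears as the reverse complement of the word.
Top2a, chr11:99024190-99024339, minus strand: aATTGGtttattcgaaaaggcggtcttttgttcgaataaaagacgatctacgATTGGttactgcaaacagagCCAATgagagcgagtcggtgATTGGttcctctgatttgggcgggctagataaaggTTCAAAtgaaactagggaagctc
Cdk1, chr10:69352913-69353062, minus strand: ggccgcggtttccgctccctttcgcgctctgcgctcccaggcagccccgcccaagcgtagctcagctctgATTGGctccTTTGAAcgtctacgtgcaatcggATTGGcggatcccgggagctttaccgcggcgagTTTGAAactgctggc
Ube2c, chr2:164769779-164769928, plus strand: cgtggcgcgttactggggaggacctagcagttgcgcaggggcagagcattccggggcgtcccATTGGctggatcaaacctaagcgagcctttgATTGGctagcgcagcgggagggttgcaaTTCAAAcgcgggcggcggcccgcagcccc
Rrm1, chr7:102441545-102441694, plus strand: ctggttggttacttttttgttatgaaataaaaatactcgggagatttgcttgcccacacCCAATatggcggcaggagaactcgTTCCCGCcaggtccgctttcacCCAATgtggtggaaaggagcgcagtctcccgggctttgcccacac
Hells, chr19:38930840-38930989, plus strand: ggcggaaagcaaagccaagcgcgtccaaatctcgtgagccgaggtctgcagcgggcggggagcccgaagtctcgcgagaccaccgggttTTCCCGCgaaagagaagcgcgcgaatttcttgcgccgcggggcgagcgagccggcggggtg

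Lineage was read from a few genes: Cd3d, Cd3e and Cd3g for T cells, Cd79a for B cells, Ncr1 for NK cells and P2ry12 for microglia. The lineage with most UMIs was taken when it had at least 3 times the UMIs of the next, cells in which none stood out so far were called mixed, and cells with 0 UMIs of all were left without a lineage. In the aged brain 52 of the 87 cycling cells read as microglia (59.8%, 95% Clopper-Pearson interval 48.7 to 70.1), 3 as NK cells, 2 as T cells and 0 as B cells, while 6 were mixed and 24 had no lineage gene. In the young brain 8 of 11 read as microglia (72.7%, 39.0 to 94.0), 2 as T cells and 1 as none of the 4. By this label microglia were the largest class in both brain libraries. Of the 52 aged cells 8 carried granulocyte marks, and free RNA held 1130 P2ry12 UMIs per 1000000 for aged brain and 760 for young brain.

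In the aged spleen 97 of 262 cycling cells read as T cells (37.0%), 77 as B cells (29.4%) and 18 as NK cells (6.87%), and 59 had no lineage gene (22.5%). The young spleen had 37 T cells of 180 (20.6%), 50 B cells (27.8%), 44 NK cells (24.4%) and 31 without a lineage gene (17.2%). By these labels and this minimum, T cells were the largest class in the aged spleen and B cells in the young spleen, and NK cells held a larger share in the young spleen. Longer marker sets gave NK cells a still larger share of the young spleen. With at least 5 UMIs of Mki67 and Top2a the NK share was 11.8% in the young spleen (6 of 51 cells) and 6.48% in the aged (7 of 108), and B cells led in the aged spleen with 37.0% against 25% for T cells. In the young spleen cells without a lineage gene then led, with 18 of 51 (35.3%) against 13 B cells (25.5%).

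**Figure D3:**
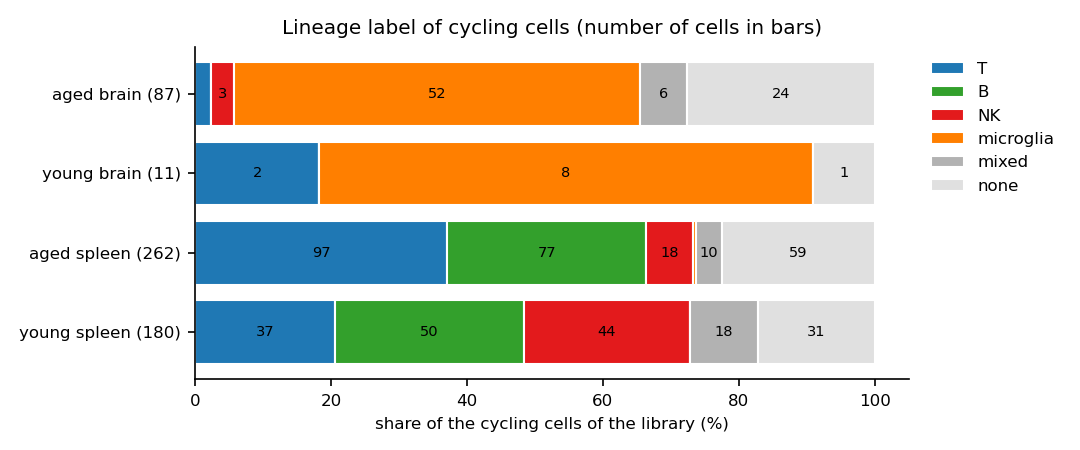
Stacked bars give the percentage of each library's cycling cells by lineage label, with the number of cells in each block. Microglia fill most of both brain bars, and T, B and NK cells with cells of no lineage gene share the spleen bars.

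Some of the cycling cells belonged to other blood lines, and these gathered among the cells without a lineage gene. Marks of these blood lines were set after the data were seen. Granulocyte marks were at least 5 UMIs of Mpo, Elane, Prtn3, Ctsg and Ms4a3, or at least 5% of UMIs from neutrophil genes. Red cell marks were at least 5 UMIs of red cell genes, and megakaryocyte marks at least 10 UMIs of megakaryocyte genes. The UMI minimums were not scaled to depth, so the cycling cells, deeper by median in every library, could reach them more easily. In the aged brain 16 cycling cells bore granulocyte marks (18.4% of 87), in the young brain 0 of 11 bore any. The aged spleen had 22 cells with granulocyte, 29 with red cell and 4 with megakaryocyte marks (21.0% of 262), and the young spleen 14, 10 and 0 (13.3% of 180). Among cells with 0 UMIs of Mki67 and Top2a, such marks were found in 0.583%, 0.165%, 0.825% and 0.604% of cells for aged and young brain and for aged and young spleen.

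Of the 59 aged spleen cells without a lineage gene 47.5% bore such marks, of the 31 in the young spleen 51.6%, and of the 24 in the aged brain 33.3%. Kit, a receptor of blood progenitors, was found in 23 of the 59 and 9 of the 31 spleen cells, Camp, a granule protein of maturing neutrophils, in 13 and 10, and Klf1, a regulator of red cell genes, in 9 and 7. In the 24 aged brain cells Lyz2 was found in 17, C1qa in 20 and Camp in 8. The monocyte and macrophage list, which holds Lyz2 and C1qa, had at least 2 UMIs in 87.5% of them. It did so in 92.8% of the 2237 aged brain cells without a lineage gene and with 0 UMIs of Mki67 and Top2a. For the granulocyte list, which holds Camp, the shares were 33.3% and 4.47%. Median depth was 4186 UMIs in the 24 cells and 695 in the 2237. Lineage labels can rest on little: 15 of the 52 microglia of the aged brain, 12 of the 97 T cells of the aged spleen and 10 of the 44 NK cells of the young spleen had a single UMI of their lineage genes.

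Such cells weighed on the sums over all labelled cells. Among the 52 labelled microglia of the aged brain, the neutrophil elastase gene Elane had 458 UMIs, 50.2% of them in 1 cell, against 14 UMIs in 11039 other microglia. Among the 97 labelled T cells of the aged spleen, Prtn3 had 1698 UMIs in 7 cells. Among the 50 labelled B cells of the young spleen, the platelet gene Pf4 had 1122 UMIs in 1 cell. A stricter set was therefore used for gene levels: cells with none of these marks whose own 8-gene lineage list reached, per 10000 UMIs, at least the 5th percentile of cells of the same label and library with 0 UMIs of Mki67 and Top2a. B cells with at least 50 UMIs of plasmablast genes also entered, since plasmablasts lower B cell genes. These are called supported cells. The rule was chosen after the data were seen and applied alike to cycling and other cells. The minimum of 50 UMIs was not scaled to depth. Labelled cycling B cells of the aged spleen had a median of 14651 UMIs, against 4209 over all its labelled B cells, and could reach that minimum more easily.

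The share of microglia in cycle was low in both brain libraries. Of 11183 labelled microglia in the aged brain 52 cycled (0.465%, 0.347 to 0.609), and of 3156 in the young brain 8 (0.253%, 0.109 to 0.499). Among supported microglia the counts were 31 of 10583 (0.293%, 0.199 to 0.416) and 6 of 2996 (0.200%, 0.0735 to 0.435). The aged share was 1.46 times the young one, with an exact conditional binomial interval of 0.601 to 4.29, which includes equal shares. All 31 aged cells had P2ry12, 28 had Siglech and 27 Tmem119, microglial surface proteins, and all 6 young cells had each of these 3 genes. P2ry12 gave the cells their label, and all 3 genes are on the list that the support rule used. These counts are therefore descriptions and no separate evidence of identity.

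By label the brain held few cycling lymphocytes, and 3 of them were NK cells. These 3 cells of the aged brain, of 23 NK cells (13%, 2.78 to 33.6), had 48, 55 and 55 UMIs of Mki67 and Top2a, 55 being the highest count in that library, and 182 to 210 UMIs of G2 and mitosis genes per 10000. All 3 had Ncr1, the gene that gave them their label. All 3 also had Ptprc, Birc5 and Gzmb, and 2 had Gzma. The young brain had 7 NK cells, none of them cycling. The 2 cycling T cells of the aged brain had 2 and 24 UMIs of Mki67 and Top2a, and the 2 of the young brain 2 and 16. The 6 mixed cycling cells of the aged brain are not in these counts. Of them 5 had at least 2 UMIs of the list of 8 NK genes, and all 6 had at least 2 of the list of 8 microglia genes. Whether some of them were lymphocytes was not tested.

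**Figure D4:**
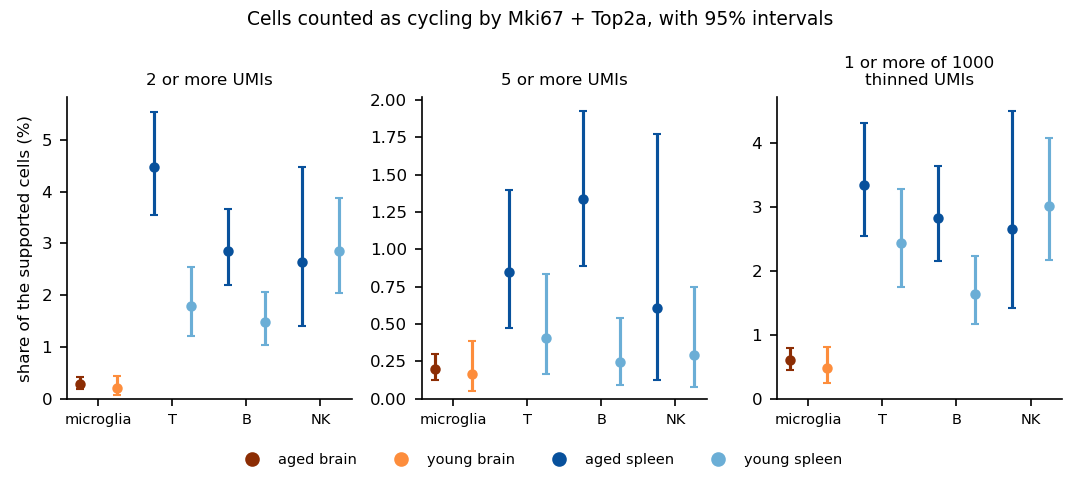
Percentage of supported cells that cycle, with 95% intervals for counting error, at a minimum of 2 UMIs of Mki67 and Top2a, at 5, and at 1 UMI after thinning every cell to 1000 UMIs, for microglia of the brain libraries and T, B and NK cells of the spleen libraries. Aged spleen T cells (4.47%) and B cells (2.86%) lie above the young ones (1.79% and 1.49%) at the minimum of 2, and NK cells do not.

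In the spleen, the share of B cells in cycle was higher in the aged library at each minimum, by a ratio that varied. Of 2096 supported B cells in the aged spleen 60 cycled (2.86%, 2.19 to 3.67), and of 2417 in the young spleen 36 (1.49%, 1.05 to 2.06), which gives a ratio of 1.92 (1.25 to 2.99). At 5 or more UMIs there were 28 and 6 cells, a ratio of 5.38 (2.19 to 15.9). With each cell thinned to 1000 UMIs, so that depth is equal, 2.82% and 1.63% had at least 1 UMI of the 2 genes, a ratio of 1.73 (1.13 to 2.66). All 3 intervals lay above 1, in 1 library of each age.

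For supported T cells the interval of the ratio lay above 1 at the minimum of 2 UMIs only. Of 1766 supported T cells in the aged spleen 79 cycled (4.47%, 3.56 to 5.54), and of 1728 in the young spleen 31 (1.79%, 1.22 to 2.54), which gives a ratio of 2.49 (1.63 to 3.91). At 5 or more UMIs there were 15 and 7 cells, a ratio of 2.10 with an interval of 0.805 to 6.08. Thinned to 1000 UMIs the shares were 3.34% and 2.43%, a ratio of 1.38 (0.907 to 2.11). Over all labelled T cells the ratio was 2.56 (1.73 to 3.84) at 2 or more UMIs. At 5 or more it was 2.63 (1.24 to 6.10), from 27 of 1872 aged and 10 of 1826 young cells, an interval above 1. Among supported cells the statement at 5 or more UMIs thus rests on the rule for support. Exactly 2 UMIs were counted in 48 of the 79 aged cells and 13 of the 31 young cells, and median depth over all labelled T cells was 5780.5 and 5089.5 UMIs.

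NK cells showed no difference that these counts could resolve. Of 492 supported NK cells in the aged spleen 13 cycled (2.64%), and of 1368 in the young spleen 39 (2.85%), which gives a ratio of 0.927 (0.454 to 1.77). At 5 or more UMIs only 3 and 4 cells remained, a ratio of 2.09 (0.305 to 12.3). Birc5 was found in 4 of the 39 young cells, and 31 of them had exactly 2 UMIs of Mki67 and Top2a. Most cycling NK cells of the young spleen thus lay at the threshold.

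Over all lineages together, 4.66% (4.13 to 5.25) of aged spleen and 2.61% (2.25 to 3.02) of young spleen cells cycled, a ratio of 1.78 (1.47 to 2.17). In the brain the shares were 0.640% (0.513 to 0.788) and 0.299% (0.149 to 0.534), a ratio of 2.14 (1.14 to 4.45). At 5 or more UMIs the brain ratio was 2.03 (0.967 to 4.92). Age cannot be told apart from the library in any of these comparisons.

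Genes were then summed over the supported cycling cells and over supported cells with 0 UMIs of Mki67 and Top2a, in each lineage and library with at least 20 cycling cells. This is the contrast that chose the cells, so counts of genes are descriptions from which nothing is read. Levels are UMIs per 1000000 (CPM), a gene was measured with at least 50 UMIs over both groups, and a gene is called 2-fold higher or lower by the ratio alone. A gene nearly absent from other cells could thus be measured only through the cycling cells where it was high, which raises the counts for cell cycle lists. Cell cycle genes from 9 lists, without Mki67 and Top2a, were 2-fold higher for 107 of 125 in aged brain microglia, where the background was 12.7% of all measured genes, 103 of 125 in aged spleen T cells (background 7.97%) and 111 of 133 in aged spleen B cells (9.17%). In the young spleen they were 94 of 113 in T cells (background 7.69%), 57 of 105 in B cells (5.19%) and 35 of 82 in NK cells (2.90%). Genes 2-fold lower were 7.94% of all measured genes in aged brain microglia, 6.60%, 19.3%, 10.8%, 8.78% and 10.1% in the same order.

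Over all labelled cells, marked ones included, the same lists gave 127 of 143 cell cycle genes in aged brain microglia (backgrounds 10.7% higher and 15.3% lower), 140 of 157 in aged spleen T cells (15.0% and 9.04%) and 140 of 154 in aged spleen B cells (15.9% and 17.2%). In the young spleen they gave 100 of 121 in T cells (9.23% and 11.4%), 103 of 123 in B cells (9.39% and 11.0%) and 48 of 92 in NK cells (3.34% and 9.56%). Among the 78 cell cycle genes measured in all 6 supported comparisons, 26 were at least 2-fold higher in each, among them Mcm3, Mcm5 and Mcm7 of the replicative helicase, Rrm1 and Dut of nucleotide supply, Hells, Ezh2, Smc2, H2afx and the tubulin genes Tuba1b and Tubb5.

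**Figure D5:**
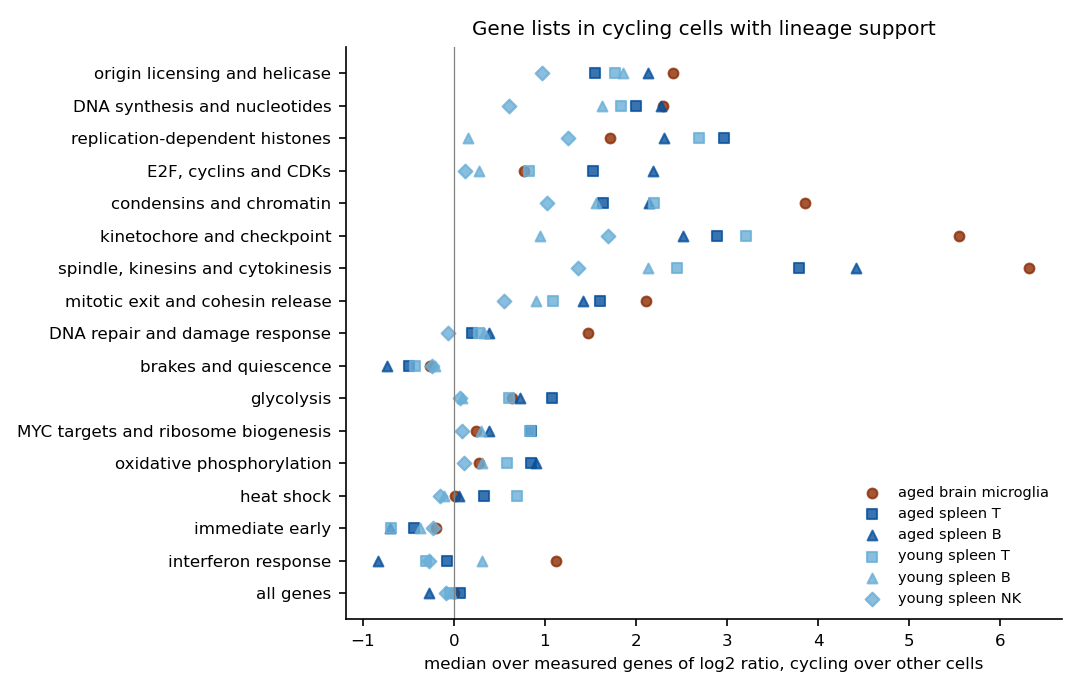
Each dot is the median log2 ratio of a gene list, supported cycling over other cells, in 6 groups of library and lineage, with the median over all measured genes for comparison. Spindle and kinetochore lists lie farthest to the right in aged brain microglia (medians 6.32 and 5.55), and the dots of young spleen NK cells lie nearest to 0 for most cycle lists.

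The medians of the cycle lists differed between the 6 groups of library and lineage, and they are given as descriptions. Spindle genes had a median log2 ratio of 6.32 in aged brain microglia, 3.79 and 4.42 in T and B cells of the aged spleen, and 2.45, 2.13 and 1.36 in T, B and NK cells of the young spleen. DNA synthesis genes had medians of 2.29, 2.0, 2.27, 1.84, 1.63 and 0.60 in the same order, and histone genes 1.72, 2.96, 2.31, 2.69, 0.16 and 1.25. Medians over all measured genes lay between -0.27 and 0.07. Such medians rest on the genes measured in each group, which were not the same genes. Some of them were measured only through the cycling cells where they were high. The medians also mix cells at the threshold with cells of the core. Exactly 2 UMIs were counted in 8 of 31, 48 of 79, 21 of 60, 13 of 31, 24 of 36 and 31 of 39 cells in that order, and their part in these differences was not tested.

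In aged brain microglia the leading genes were those of the mitotic spindle, which the choice of cells by Mki67 and Top2a favours. Hmmr, a spindle assembly factor, had 52 UMIs in 16 of 31 cycling cells against 5 UMIs in 10469 other microglia, or 324 against 0.195 CPM, a ratio of 1661 (668 to 5329). Cenpe, a kinetochore motor, was at 342 against 0.818 CPM and Prc1, which bundles midzone microtubules, at 579 against 1.71 CPM. Birc5 was found in 18 of the 31 cells, with 224 against 0.896 CPM, and Stmn1 in 22, with 921 against 22.2 CPM (41.5-fold, 34.4 to 49.8).

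Replication genes were higher by less in the same cells. Mki67 and Top2a, whose RNA peaks in G2 and mitosis, chose these cells, so this order is a description. Mcm7 was at 168 against 19.9 CPM (8.42-fold, 5.50 to 12.4) and the polymerase clamp Pcna at 174 against 28.6 CPM (6.08-fold, 4.01 to 8.87). The D-type cyclin gene Ccnd1, which acts before S phase, was at 112 against 154 CPM (0.729, 0.431 to 1.15), an interval that includes 1. P2ry12 was at 1162 against 2280 CPM, a ratio of 0.510 (0.439 to 0.589), and the 8 microglia genes together at 151 against 204 UMIs per 10000.

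Genes of the interferon response were also higher in the supported cycling microglia. Of 28 measured genes of that list 17 were at least 2-fold higher, with a median log2 ratio of 1.13 and 25 against 9.28 UMIs per 10000. Ifi27l2a, an interferon-induced gene, was at 1030 against 157 CPM (6.54-fold, 5.56 to 7.65) in 22 of 31 cells. By cell, 15 of the 31 lay above the 90th percentile of other microglia, 19.3 UMIs per 10000, with a median of 19.2 against 5.60. In the young brain 3 of the 6 supported cycling microglia lay above the 90th percentile of 17.5, with a median of 16.4 against 4.43. Over all 52 labelled microglia, however, only 4 of 28 genes were 2-fold higher, with a median of 0.21, so this count depends on the rule for support.

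Glycolysis and quiescence genes differed less. Gapdh, a glycolytic enzyme, was at 1357 against 548 CPM and the hexokinase gene Hk2 at 635 against 1066 CPM in cycling and other microglia. Of 21 measured genes that hold cells out of cycle 5 were 2-fold higher and 3 lower. The lowest named ratios came from genes with few or no UMIs in cycling cells: Cald1, an actin-binding protein, and Creb3l2 had 0 UMIs against 1751 and 1649, and Sox4 had 9 UMIs, 56.0 against 261 CPM (0.215, 0.0981 to 0.408). With 31 cells such zeros rest on few UMIs in all.

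In aged spleen T cells the strongest genes came from a minority of the 79 cells. Pclaf, a partner of the polymerase clamp, had 283 UMIs in 12 cells against 12 UMIs in 1524 other T cells, or 323 against 1.34 CPM (241-fold, 136 to 472). Birc5 likewise came from 12 cells, at 150 against 0.895 CPM, and Stmn1 from 20, at 299 against 12.8 CPM (23.5-fold, 18.8 to 29.5). Hist1h3c, a replication-dependent histone gene, had 50 UMIs against 0, at least 170-fold higher against a floor of 3 UMIs over the group. Dut, which removes dUTP, was at 267 against 33.3 CPM and found in 30 cells.

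Beyond the cycle lists, the sums over these T cells held more RNA of energy metabolism and fewer UMIs of quiescence genes. Gapdh was at 1443 against 490 CPM (2.94-fold, 2.76 to 3.13) in 77 of 79 cells and Ldha, lactate dehydrogenase, at 464 against 177 CPM (2.62-fold, 2.34 to 2.92). Of 15 measured glycolysis genes 8 were 2-fold higher and 1 lower, and of 49 oxidative phosphorylation genes 13 were higher. Btg1, an antiproliferative factor, was at 1830 against 3250 CPM, Klf2, a factor of resting T cells, at 428 against 869 CPM, and Foxp1, which holds T cells quiescent, at 185 against 438 CPM (0.422, 0.359 to 0.494). Ccnd2, a D-type cyclin, was at 330 against 367 CPM, with a ratio of 0.900 and an interval of 0.796 to 1.02.

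The helper lineage was more frequent among cycling than among other T cells of the aged spleen. Cd4 was found in 55 of the 79 supported cycling cells (69.6%, 231 CPM) and in 479 of 1524 others (31.4%, 108 CPM). Cd8a was found in 13 (16.5%) against 305 cells, and Foxp3, which marks regulatory T cells, in 6 against 85 cells. Median depth was 7909 UMIs in these cycling and 5611 in the other T cells. Follicular helper genes were 2-fold higher for 5 of 8, with a median log2 ratio of 1.19, but for 1 of 8 over all labelled T cells, with a median of 0.41. In the young spleen Cd4 was found in 10 of 31 cycling cells (32.3%, 89.6 CPM) and in 444 of 1593 others (27.9%, 86.3 CPM), and Cd8a in 7 cycling cells. The excess of Cd4 seen in the aged spleen was thus small in the young spleen, where only 31 cells could show it.

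Genes of innate-like lymphocytes were lower in the cycling T cells of the aged spleen. Trdc, the constant region of the delta receptor chain, had 0 UMIs against 472, and the NK receptor genes Klra7 and Klrc2 were at 3.43 against 63.1 CPM and 12.6 against 110 CPM. Of 4 measured gamma-delta genes 4 were 2-fold lower, and of 8 NK genes 6. In the young spleen the counts were 2 of 4 and 2 of 8.

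In young spleen T cells Pclaf led again. Pclaf was at 353 against 0.593 CPM (595-fold, 248 to 1865) in 10 of 31 cells, the histone gene Hist1h2ab at 315 against 0.711 CPM, and Birc5 at 228 against 0.711 CPM in 12 cells. Stmn1 was at 650 against 15.3 CPM (42.5-fold, 34.1 to 53.2) and Gapdh at 1357 against 418 CPM. Btg1 was at 1379 against 2629 CPM (0.524, 0.478 to 0.574).

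Cycling B cells of the aged spleen combined cycle genes with those of plasmablasts, the dividing cells that begin to secrete antibody. Pclaf was at 332 against 0.984 CPM (337-fold, 175 to 744) in 23 of 60 cells, Birc5 at 142 against 0.875 CPM in 24, Ube2c at 203 against 1.31 CPM in 23 and Stmn1 at 289 against 10.7 CPM in 29 (26.9-fold, 21.3 to 34.3). Of 8 plasmablast genes 7 were 2-fold higher, with a median log2 ratio of 2.82 and 116 against 21.8 UMIs per 10000. By cell the values ran from 0 to 407 with a median of 10.3, and 22 of 60 lay above the 90th percentile of other B cells, 14.3. Jchain, which joins antibody units, was found in 34 of the 60 cells and Sdc1, a plasma cell surface protein, in 20. Plasmablast genes had also served to admit B cells to the supported set; over all 77 labelled cycling B cells 7 of 8 were 2-fold higher, with a median of 2.24. Free RNA of the aged spleen held 569 Jchain UMIs per 1000000, against 166 in the young spleen, and its part was not tested.

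Genes of the resting B cell were lower in these cells. Cd79a, a chain of the B cell receptor, was at 787 against 1813 CPM (0.435, 0.403 to 0.469) and 5 of 8 B cell genes were 2-fold lower. Cd79a gave the cells their label, and the 8 genes are on the list that the support rule used. That rule also admitted cells by plasmablast genes whatever their B cell genes, so the values of these B cell genes are descriptions. Btg1 was at 1026 against 3393 CPM (0.302, 0.283 to 0.323), Foxp1 at 457 against 1053 CPM and Satb1, a chromatin organiser, at 104 against 537 CPM (0.194, 0.156 to 0.237). Of 20 measured quiescence genes 8 were 2-fold lower and 2 higher, and of 25 immediate early genes, switched on within minutes of a stimulus, 8 were lower and 0 higher. Hspa5, the chaperone of the endoplasmic reticulum, was at 1482 against 513 CPM (2.89-fold, 2.72 to 3.07), and 18 of 49 oxidative phosphorylation genes were 2-fold higher.

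Cycling B cells of the young spleen had few UMIs of plasmablast genes. Pclaf was at 264 against 1.27 CPM (208-fold, 111 to 425) in 7 of 36 cells, Birc5 at 130 against 0.846 CPM in 8 and Stmn1 at 364 against 17.9 CPM in 9. Of 5 measured plasmablast genes 0 were 2-fold higher, with 8.27 against 6.42 UMIs per 10000. Jchain was found in 1 of 36 cells and Sdc1 in 2. Cd79a was at 1984 against 2413 CPM (0.822, 0.748 to 0.902).

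In young spleen NK cells few cells carried the signal. Hist1h1b, a linker histone gene, was at 303 against 7.47 CPM (40.6-fold, 26.9 to 62.0), from 3 of 39 cells with 60.9% of its UMIs in 1 cell. Stmn1 was at 598 against 38.9 CPM (15.4-fold, 12.3 to 19.2) in 10 cells, with 47.8% of its UMIs in 1 cell, and Birc5 at 70.4 against 0.983 CPM in 4 cells. Gzma, a granzyme of cytotoxic cells, was at 6372 against 8029 CPM and Ncr1 at 541 against 723 CPM. Of 12 measured cytotoxic genes 0 were 2-fold higher and 1 lower.

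Aged and young cycling B cells were then compared directly, 60 against 36 supported cells. Of 2873 measured genes 9.19% were 2-fold higher in the aged library and 12.6% lower; over all labelled cycling B cells the figures were 5.62% and 6.28%. Jchain was at 8022 against 217 CPM (37.0-fold, 28.1 to 49.9) and found in 34 of 60 against 1 of 36 cells, Xbp1, the driver of the secretory programme, at 798 against 69.3 CPM (11.5-fold, 7.05 to 20.3) and Creld2, an endoplasmic reticulum protein, at 387 against 8.66 CPM (44.7-fold, 12.3 to 370). Of 7 measured plasmablast genes 6 were 2-fold higher, with a median log2 ratio of 2.78. These values are descriptions, since plasmablast RNA had admitted some of the supported B cells: 16 labelled cycling B cells had at least 50 UMIs of Jchain in the aged library and 1 in the young. Over all labelled cycling B cells, which that rule did not touch, 6 of 7 genes were also 2-fold higher, at 76.9 against 5.53 UMIs per 10000. Among supported B cells with 0 UMIs of Mki67 and Top2a the median over 7 genes was 0.80 and Jchain was 10.0-fold higher (9.48 to 10.6), so the aged library had more of this RNA outside the cycling cells too.

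Genes of follicular B cells went the other way. Fcmr, a receptor for IgM, was at 170 against 784 CPM (0.217, 0.174 to 0.271), Fcer2a, which encodes CD23, at 95.1 against 446 CPM (0.213, 0.158 to 0.287) and Ms4a4c at 24.3 against 260 CPM. All 8 B cell genes were 2-fold lower in the aged cycling cells, with a median of -1.42, against -0.36 among other B cells. These 8 genes are on the list of the support rule, and cells could also enter by plasmablast genes. Over all labelled cycling B cells 4 of 8 were 2-fold lower, with a median of -1.03, and Cd79a stood at 0.507 (0.454 to 0.567). Slpi, a protease inhibitor, was at 1178 against 8.66 CPM, but 59.4% of its UMIs came from 1 cell. Birc5 was at 142 against 130 CPM, a ratio of 1.09 (0.727 to 1.68), and labelled cycling B cells had a median depth of 14651 UMIs when aged and 5821 when young.

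Aged and young cycling T cells, 79 against 31 supported cells, differed in fewer genes. Of 3579 measured genes 4.97% were 2-fold higher in the aged library and 1.76% lower; over all labelled cycling T cells the figures were 4.81% and 2.02%. Socs3, a brake on cytokine signalling, was at 165 against 11.6 CPM (14.2-fold, 5.44 to 52.9), in 56 of 79 against 4 of 31 cells. Tox, a factor of chronically stimulated and follicular helper T cells, was at 237 against 43.3 CPM (5.46-fold, 3.23 to 9.93) in 49 against 6 cells, and Bhlhe40, a factor of activated T cells, at 433 against 89.6 CPM (4.83-fold, 3.35 to 7.22). These values cover cycling cells only and do not show whether other T cells of the libraries differed alike.

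Gzma, Klre1 and Cxcr6 were lower in the aged cycling T cells, and Cxcr6 was lower in the other T cells too. For Gzma and Klre1 the values cover cycling cells only. Gzma was at 32.0 against 673 CPM (0.0475, 0.0309 to 0.0705), the NK receptor gene Klre1 at 14.9 against 179 CPM, and the chemokine receptor gene Cxcr6 at 20.6 against 171 CPM (0.121, 0.0670 to 0.207), which stood at 0.205 (0.187 to 0.225) among other T cells. Of 7 measured cytotoxic genes 0 were 2-fold higher and 3 lower, with a median log2 ratio of -0.85 over summed cells. By cell, the median of that list was 16.9 UMIs per 10000 in the aged library and 17.1 in the young. The highest cell had 54.2 in the aged library and 219 in the young, so single young cells could weigh on these sums. Lyz2, a macrophage and granulocyte gene, had 402 UMIs in 4 of the 31 young cells and 19 in the aged. Among cycle genes, Birc5 was at 150 against 228 CPM (0.656, 0.492 to 0.878), Stmn1 at 299 against 650 CPM, and 5 of 12 histone genes were 2-fold lower, with a median of -0.93. Of 9 origin licensing genes and 18 DNA synthesis genes 0 were 2-fold higher or lower, with medians of -0.04 and -0.03, and of 21 spindle genes 2 were lower, with a median of -0.64. Cdk6, a kinase of the first cycle phase, was 3.01-fold higher (2.12 to 4.40) in the aged library over all labelled cycling T cells. Jchain and Gfod2 were also higher in the aged cells, with 96.5% and 98.9% of their UMIs in 1 cell.

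The authors' deposited tables of cluster markers list some of these genes. In the authors' deposited table for the aged brain, Mki67 was found in a fraction of 0.54 of cells of cluster 10 and 0.004 of other cells, and Birc5 in 0.369 and 0.002. For the aged spleen, the authors' deposited table gives Mki67 fractions of 0.487 and 0.041 for cluster 8 and 0.933 and 0.056 for cluster 14, with Birc5 at 0.33 and 0.533 in the 2 clusters. The authors' deposited table for the young brain gives Mki67 at 0.46 and 0.008 for cluster 8, and that for the young spleen gives Top2a at 0.324 and 0.054 for cluster 9. The authors' deposited table for the young brain lists no Birc5, and that for the young spleen lists neither Mki67 nor Birc5. These tables name no cell types, and their clusters were not matched to the cells counted here.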

How the data were processed

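Raw UMI counts of each gene in each barcode were deposited by the authors, unfiltered, for 31053 mouse genes. The software is version 3.1.0 per the file headers but Cell Ranger 1.3.1 per the submitters' processing notes, whose build, GRCh38, is human; no coordinate was taken from these files. The deposited cluster tables of the authors give the fraction of cells with a gene in a cluster and in other cells. The members, gene lists and tests were chosen with earlier results of these data known.

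Cells were filtered as the report states, with groups taken from the labels. No test was possible with 1 library per group. Shares have 95% Clopper-Pearson intervals and ratios exact conditional binomial ones (Python 3.11.15, numpy 2.4.6, scipy 1.17.1, pandas 2.3.3, matplotlib 3.10.9), which cover counting error only. UMIs were summed per lineage and library and scaled to 1000000. Genes needed 50 UMIs over both groups, and 2-fold was the size counted; a group at 0 was set to a floor of 3 UMIs. Named genes were ranked by the bound of their ratio interval nearest 1: the first 10 higher and 5 lower for cycling against other cells, the first 5 each way for aged against young. Mki67, Top2a, sex-linked marker and unnamed genes were set aside, as were genes of haemoglobin, mitochondria, ribosomal proteins, immunoglobulins and variable T cell receptor segments. Birc5, Stmn1, lineage genes and up to 4 members of each list with the most UMIs were added. The same rule was applied to the supported cells, a set chosen after the data were seen, and marker genes of cell types were named from their lists.

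The comparison of summed counts was tested on simulated data with known fold changes. Scrublet in scanpy 1.11.5 marked 157 and 250 barcodes of the aged and young spleen as doublets, 5 and 15 of them cycling; in the brain libraries it marked 0, and removing the 1480 and 108 highest scores removed 0 cycling cells. Doublets were kept and removed only as an alternative. Other alternatives were 1000 UMIs per thinned cell, other minimums, mitochondrial limits, marker sets and scalings.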

Additional observations from a re-analysis of the deposited data

Results flagged for a closer look

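Signal lay in barcodes that the comparisons do not use. Of the young brain barcodes with more UMIs in the aged spleen library, 137 had at least 2 UMIs of Mki67 and Top2a, against 11 cycling cells kept in the young brain. With no barcodes dropped, 1.65% of young brain cells would have cycled, above the aged brain. Among cells with 10% or more globin, which lie outside the cycling immune cells, at least 2 UMIs of the 2 genes were found in 7 cells of the aged brain, 27 of the aged spleen and 7 of the young spleen, of 60, 29 and 12 such cells.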

How the results depend on the processing

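No paired analysis was possible because each group is 1 library and the labels carry no replicate numbers. Of the values that answer a comparison, 236 under an alternative stayed within the limits set for them and 57 moved beyond, and among values of single genes 1111 stayed, 253 moved and 4 changed sign. The cause was not tested for the moved values. The supported cells and the minimum of 5 UMIs were added after the data were seen.

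The share of cycling cells moved beyond its interval in the libraries named here and stayed within it in the others, as in the young brain with 1 UMI of each gene (0.299%) and the thinned young spleen (2.69%). Thinned to 1000 UMIs it was 1.06% for aged brain, 0.635% for young brain and 3.85% for aged spleen. At 3 UMIs it was 0.485%, 2.67% and 1.25% in the aged brain, aged spleen and young spleen, with 1 UMI of each gene 0.50%, 2.22% and 0.915%, and at 5 UMIs 0.441%, 1.92% and 0.740%. At most 5% mitochondrial UMIs gave 6.44% in the aged spleen, and no dropped barcodes 1.65% in the young brain.

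Of the cycling cells, supported microglia were 35.6% of the aged brain, supported T and B cells 30.2% and 22.9% of the aged spleen and supported B cells 20% of the young spleen. Microglia of the aged brain were 42.5% with 2 lineage UMIs asked and 85.1% with longer marker sets, which gave 35.0% NK cells in the young spleen. At 3 UMIs T cells of the aged spleen were 30.0% and NK cells of the young spleen 11.6%; at 5 UMIs aged spleen T and B cells were 25% and 37.0% and young spleen NK cells 11.8%.

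The ratio of aged to young spleen shares was 1.38 for T cells thinned to 1000 UMIs, for labelled and for supported cells alike. For B cells it was 3.77 at 5% mitochondrial UMIs, 2.63 at 3 UMIs, 2.98 with 1 UMI of each gene, 3.58 at 5 UMIs and 5.38 at 5 UMIs among supported cells.

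Among genes 2-fold apart between cycling and other cells, thinning gave 16.1% higher and 7.53% lower in aged brain microglia, 6.58% higher in aged spleen T cells and 9.94% higher in aged spleen B cells. Thinning left 21.6% of cell cycle genes higher in aged spleen T cells, 52.8% in young spleen T cells, 44.8% in young spleen B cells and 13.9% in young spleen NK cells. Supported cells gave 7.94% lower in aged brain microglia, and 7.97%, 9.17% and 5.19% higher in aged spleen T, aged spleen B and young spleen B cells, the last with 54.3% of cell cycle genes. Young spleen NK cells had 5.43% higher at 20 UMIs per gene and 2.14% at 100.

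Between aged and young cycling T cells, genes lower were 6.35% when thinned, 4.46% at 5% mitochondrial UMIs and 3.98% at 20 UMIs per gene, and genes higher 7.95% at 20 UMIs and 3.05% at 100. For cycling B cells, genes lower were 3.94% with median-of-ratios scaling, 13.1% at 5% mitochondrial UMIs and 12.6% among supported cells, where 9.19% were higher. That scaling moved the median log2 ratio over all genes by -0.14 in aged brain microglia, -0.16 in young spleen NK cells and -0.16 between aged and young B cells. Gzma and Nkg7 turned to log2 ratios of -2.41 and -2.87 in supported young spleen B cells, S100a9 to 0.53 in supported aged against young B cells, and Gfod2 to -1.15 in T cells at 5% mitochondrial UMIs.

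The limits are few cells and 1 library per group. The young brain gave 11 cycling cells, and a single cell could hold most UMIs of a gene. Age, animal and library cannot be told apart, and shared barcodes link the young brain and aged spleen libraries.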
